A study of Mus musculus with 32 samples.

Results

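The genes of the G2 phase and of mitosis were followed as 34 members among 45706 gene identifiers in the tables. They were chosen by gene name for their known roles, with earlier results known, and not by a threshold on these data. They were measured by RNA sequencing in HSPCs, the haematopoietic stem and progenitor cells from which blood is renewed, which were sorted from marrow for Kit and Sca1 and for lacking lineage markers. The sorted HSPCs were wild-type C57BL/6J donor cells carrying both CD45.1 and CD45.2, in all groups, so they were bystanders and not carriers of the leukaemia gene. Experienced mice (AF9_Experienced) were lethally irradiated C57BL/6J recipients given 800000 such wild-type marrow cells with 200000 marrow cells homozygous for the human MLL-AF9 fusion (hMLL-AF9) and for rtTA, the activator that switches the fusion on under doxycycline. Naive mice received the same wild-type cells with 200000 hMLL-AF9-null cells that were homozygous for rtTA only. Per the labels, doxycycline was started once 6 to 8 weeks had passed from the transplant, given for 5 weeks and then stopped for 4 weeks so that the leukaemia regressed. The labels do not say separately whether naive mice drank it. The mice then received lipopolysaccharide (LPS, a bacterial product that triggers inflammation) or phosphate-buffered saline (PBS) and were sacrificed 24 h later. The 4 groups were experienced LPS, experienced PBS, naive LPS and naive PBS, with 4 biological replicates each, and the labels do not state if each replicate is 1 mouse or pooled mice.

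Cells in G2 build up cyclin-dependent kinase 1 (Cdk1) with cyclins A and B, which starts mitosis. Polo-like and Aurora kinases then build the spindle, kinetochore proteins attach chromosomes to it, and the spindle checkpoint holds the anaphase-promoting complex back until all chromosomes are attached. Motor and cytokinesis proteins finally part the chromosomes and the daughter cells. The RNAs of these genes are made mainly in late S, G2 and M phase, and most are low in resting cells, so that they are widely used as markers of cycling cells. Some HSPCs at rest are out of the cycle, and inflammatory signals are known to bring a part of these into it. In bulk RNA of sorted cells, fewer cells in a phase and less RNA per cell cannot be told apart.

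All 34 members were well measured. Each passed the filter on low counts, which kept 15186 genes, and the lowest estimated count of any member in any library was 206, for Ndc80, a kinetochore protein that binds microtubules. Libraries held 7718857 to 22264672 expected counts. Experienced LPS replicate 4 stood apart, with the fewest counts, the fewest genes detected (14921) and a mitochondrial share of 7.30% of counts, where the rest of its group had 1.91% to 2.50%. Experienced PBS replicate 4 came next, at 5.94% mitochondrial counts, and the other libraries of the series reached 4.26% at most. The defining HSPC markers were present in every library, with Kit at a mean of 142 TPM (a level corrected for transcript length and library size) in experienced LPS, 191 in experienced PBS, 161 in naive LPS and 203 in naive PBS. Ly6a, which encodes the sort marker Sca1, averaged 172 TPM in experienced LPS against 53.7 in experienced PBS, and 185 TPM in naive LPS against 60.4 in naive PBS. The sort marker itself was thus higher in RNA after LPS, and its part in the results below was not tested.

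On the TPM scale, which allows genes to be compared, the members spanned 13.9 to 190.5 TPM as a mean over the 16 libraries. Top2a, the topoisomerase that untangles DNA, was highest at 190.5 TPM. Mki67, which coats mitotic chromosomes and is the classic proliferation antigen, followed at 104 TPM, and Cdk1 at 101 TPM, within the spread between libraries of each other. Cenpa, the histone H3 variant of centromeres (84.2 TPM), and Ube2c, the ubiquitin-conjugating enzyme of the anaphase-promoting complex (82.1 TPM), came next. The lowest were Kif4, a chromosome-bound motor (13.9 TPM), Ndc80 (14.1 TPM), Ttk, the checkpoint kinase also called Mps1 (15.1 TPM), and Cenpf, a kinetochore protein (16.99 TPM). Within groups, members were steadiest in experienced LPS, where the median coefficient of variation over members was 11.3%, against 24.3% in experienced PBS, 32.0% in naive LPS and 17.1% in naive PBS.

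Many promoters of such genes carry a cell cycle genes homology region (CHR), with the letters TTTGAA or, less often, TTCGAA, which the MuvB core of the DREAM and B-Myb complexes binds, often a short way from CCAAT boxes bound by NF-Y. RefSeq promoters on GRCm38.p6, 250 bases before to 50 after the transcription start, were at hand for 30 of the 34 members, all but Tpx2, Kif20a, Aurkb and Ccna2. TTTGAA or TTCGAA stood on either strand in at least 1 promoter of 25 of the 30 members (83.3%), against 21.7% of all 27025 genes in the table. CCAAT, whose reverse form ATTGG can overlap the end of TTTGAA, stood in 23 of 30 (76.7%), against 41.1% of all genes, and both kinds stood in 21 of 30 (70.0%), against 8.61%. Birc5, Ccnb1, Cenpe, Mad2l1 and Nusap1 had neither CHR form in these windows. A match describes the letters and is not a site of binding. The 7 promoters below are from some of the members that the results turn on. They were called higher after LPS (Anln, Bub1, Cdca8), called lower (Kif23), or are reference genes of the cycle (Cdc20, Cdk1, Mki67). All 7 hold a CHR form. Birc5 and Cenpe, also called higher after LPS, hold none and are not shown, so the 7 do not tell how calls relate to the CHR. Each runs from 150 bases before the start to 30 after, 5′ to 3′, on the minus strand of GRCm38.p6, and capitals mark each match to both CHR forms and to CCAAT on either strand. Read on the other strand, TTTGAA becomes TTCAAA, while CCAAT becomes ATTGG. They lie at chr9:22389177-22389356 (Anln), chr2:127831830-127832009 (Bub1), chr4:124936888-124937067 (Cdca8), chr9:61946770-61946949 (Kif23), chr4:118437314-118437493 (Cdc20), chr10:69352883-69353062 (Cdk1) and chr7:135716350-135716529 (Mki67).
Anln: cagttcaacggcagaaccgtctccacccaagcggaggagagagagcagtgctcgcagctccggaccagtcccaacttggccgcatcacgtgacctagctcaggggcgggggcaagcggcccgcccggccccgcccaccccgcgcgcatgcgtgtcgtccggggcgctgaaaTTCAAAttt
Bub1: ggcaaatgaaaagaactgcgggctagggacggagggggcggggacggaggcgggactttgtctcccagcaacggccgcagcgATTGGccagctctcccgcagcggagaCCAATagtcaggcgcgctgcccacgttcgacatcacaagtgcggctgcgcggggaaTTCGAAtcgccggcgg
Cdca8: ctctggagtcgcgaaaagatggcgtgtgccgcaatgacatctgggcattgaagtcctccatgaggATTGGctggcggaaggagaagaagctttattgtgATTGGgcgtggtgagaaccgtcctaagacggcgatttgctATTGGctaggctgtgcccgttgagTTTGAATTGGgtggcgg
Kif23: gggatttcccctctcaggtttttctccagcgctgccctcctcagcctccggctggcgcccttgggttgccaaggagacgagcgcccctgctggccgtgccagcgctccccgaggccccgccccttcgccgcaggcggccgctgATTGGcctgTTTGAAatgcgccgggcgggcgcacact
Cdc20: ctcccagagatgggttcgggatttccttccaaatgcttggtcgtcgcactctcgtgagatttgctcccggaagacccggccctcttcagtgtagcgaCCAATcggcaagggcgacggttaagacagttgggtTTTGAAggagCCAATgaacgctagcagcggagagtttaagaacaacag
Cdk1: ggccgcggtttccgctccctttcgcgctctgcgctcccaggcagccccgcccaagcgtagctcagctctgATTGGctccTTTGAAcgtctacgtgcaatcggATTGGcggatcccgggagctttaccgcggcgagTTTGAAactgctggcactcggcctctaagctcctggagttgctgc
Mki67: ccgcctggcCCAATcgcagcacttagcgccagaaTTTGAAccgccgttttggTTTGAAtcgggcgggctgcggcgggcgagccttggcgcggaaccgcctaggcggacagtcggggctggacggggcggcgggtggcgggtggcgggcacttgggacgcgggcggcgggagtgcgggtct
The part shown of Kif23, the member called lower, holds a CHR and a CCAAT form, as do those of Bub1 and Cdca8, which were called higher, and of Cdc20, which was not called in any comparison. In Cdca8 the CHR overlaps a reversed CCAAT box. Anln has a reversed CHR within the first transcribed bases and no CCAAT in the part shown.

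**Figure D1:**
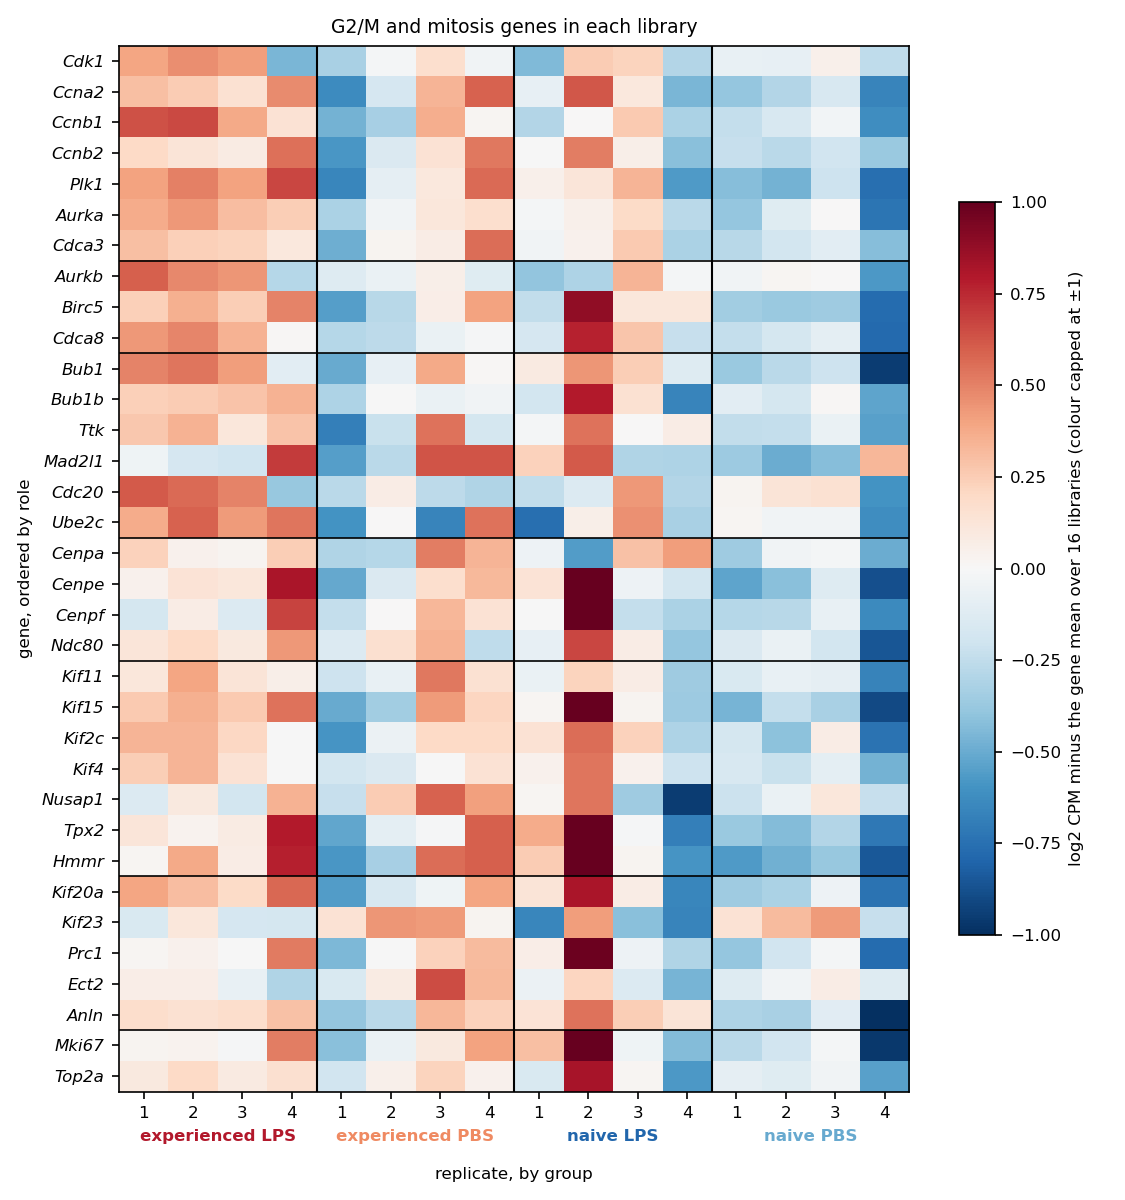
Level of the 34 members (rows, ordered by role) in the 16 libraries (columns, by group), as log2 CPM minus the gene's mean over all libraries, where CPM is the count scaled to library size. Naive LPS replicate 2 is high for most members and naive PBS replicate 4 low, and experienced LPS replicate 4 is low for Cdk1, Aurkb and Cdc20 while it is high for Mki67, Tpx2, Cenpe and Mad2l1.

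Members varied together from library to library. After group means were removed, the mean correlation over the 561 pairs of members was 0.55, against 0.006 over all pairs of tested genes, and 93.4% of member pairs correlated above 0. These correlations are across 16 libraries and share library size and composition, so they are given as a description. Kif15, a spindle motor, was the most typical member, with a median correlation of 0.80 with the others, followed by Ccna2 (cyclin A) at 0.76. Cenpa stood apart at 0.03, as did Aurkb, the Aurora kinase of the chromosomal passenger complex, at 0.09 and Cdc20, the activator of the anaphase-promoting complex, at 0.22. Counts of members that share a direction therefore hold fewer than 34 separate observations.

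The first comparison was LPS against PBS in experienced mice, which asks how HSPCs that had lived beside the leukaemia answered the challenge. No member, 0 of 34, was called higher or lower at an adjusted p under 0.05 in edgeR's quasi-likelihood test adjusted over all 15186 genes, where 4.52% of all genes were called higher and 8.26% lower. At an unadjusted p under 0.05 there were 5 members (14.7%, against 27.9% of all genes), and DESeq2 called 1 higher, Ccnb1 (2.94%, against 7.76% of all genes). The log2 changes of members had a median of 0.24, from -0.36 to 0.58, against a median of -0.02 over all tested genes. They lay above 0 for 30 of 34 members (88.2%), against 48.0% of all genes, and on the TPM scale for 24 members.

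Ccnb1, cyclin B1, came nearest to the threshold. It had 111, 112, 92.5 and 78.9 CPM in experienced LPS, against 51.3, 56.7, 91.5 and 72.3 CPM in experienced PBS, and its log2 change was 0.54 (SE 0.19, adjusted p = 0.079). The groups overlapped through experienced PBS replicate 3. Cdc20 had 108, 104, 99.0 and 54.2 CPM in experienced LPS, against 58.3, 74.2, 58.6 and 57.2 CPM in experienced PBS, a log2 change of 0.56 (SE 0.22, adjusted p = 0.11). Here 3 of 4 LPS libraries lay above every PBS library, and replicate 4 lay below them all. Aurkb had the same form, with 105, 96.9, 94.5 and 56.9 CPM in experienced LPS, against 63.5, 66.3, 72.4 and 63.9 CPM in experienced PBS (log2 change 0.41, SE 0.20, adjusted p = 0.18). So did Cdk1, with 93.9, 98.4, 95.2 and 52.1 CPM in experienced LPS, against 57.1, 70.4, 80.4 and 69.5 CPM in experienced PBS (log2 change 0.29, SE 0.20, adjusted p = 0.36).

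Without experienced LPS replicate 4, the library with the most mitochondrial counts, 5 members were called higher in experienced mice, namely Cdc20, Cdk1, Aurkb, Cdca8 and Ccnb1 (14.7%, against 9.36% of all genes in that fit). Without experienced PBS replicate 3 the count was 2 (Ttk and Ccnb1, 5.88%, against 3.43% of all genes). Without experienced PBS replicate 4 it was also 2 (Ube2c and Plk1), against 6.25% of all genes. Without naive LPS replicate 2, which enters the choice of genes tested and the estimate of the spread, it was 1 (Cdca8, 2.94%, against 6.98% of all genes). With both libraries highest in mitochondrial counts left out, a choice made after the data were seen, it was 5 (Ube2c, Cdc20, Aurkb, Plk1 and Ccnb1, 14.7%), against 10.1% of all genes. The median log2 change of members was then 0.35. The part of the mitochondrial share in these calls was not tested.

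In 3 members all experienced LPS libraries lay above all experienced PBS libraries (8.82%, where 6.45% of all genes did so), and in no member did they all lie below (0 of 34, where 10.9% of all genes did). These were Aurka, the Aurora kinase of the spindle poles, Cdca8 (borealin, of the chromosomal passenger complex) and Bub1b, the checkpoint protein BubR1. Aurka had 44.2, 46.2, 42.2 and 40.4 CPM in experienced LPS, against 27.5, 33.3, 36.9 and 38.3 CPM in experienced PBS. Cdca8 had 94.3, 98.2, 88.7 and 70.3 CPM in experienced LPS, against 57.4, 58.3, 66.7 and 69.1 CPM in experienced PBS. Separate groups did not bring them past the threshold, with adjusted p of 0.17 for Aurka and 0.13 for Cdca8. Bub1b had 123, 124, 127 and 133 CPM in experienced LPS, against 84.1, 104, 99.7 and 102 CPM in experienced PBS (log2 change 0.38, SE 0.22, adjusted p = 0.28). In naive mice Bub1b had 92.0, 181, 116 and 66.0 CPM after LPS, against 96.9, 92.3, 105 and 72.5 CPM after PBS (log2 change 0.31, SE 0.22, adjusted p = 0.34), with overlapping groups. Ube2c had the largest log2 change, 0.58 (SE 0.26, adjusted p = 0.17), with 69.8, 81.1, 72.2 and 78.2 CPM in experienced LPS, against 35.5, 54.1, 34.1 and 78.6 CPM in experienced PBS. Plk1, the polo-like kinase, had 72.6, 78.1, 72.5 and 87.4 CPM in experienced LPS, against 34.9, 51.7, 59.2 and 81.3 CPM in experienced PBS (log2 change 0.45, SE 0.22, adjusted p = 0.19). In both, 1 PBS library, replicate 4, reached the LPS range.

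The most used proliferation markers had log2 changes smaller than their SE in experienced mice, which does not show them to be unchanged. Mki67 had 849.8, 852, 827 and 1189.8 CPM in experienced LPS, against 621, 795, 889 and 1097 CPM in experienced PBS (log2 change 0.13, SE 0.28, adjusted p = 0.81). Top2a had 592, 634, 588 and 618 CPM in experienced LPS, against 485, 572, 646 and 568 CPM in experienced PBS (log2 change 0.10, SE 0.22, adjusted p = 0.82). The groups overlapped in both, and on the TPM scale the sign of Top2a was the other way. Bub1, the checkpoint kinase, had 66.8, 68.8, 63.3 and 44.1 CPM in experienced LPS, against 33.4, 44.8, 61.6 and 47.9 CPM in experienced PBS (log2 change 0.38, SE 0.20, adjusted p = 0.24). Nusap1, Ect2, Mad2l1 and Kif23 had changes below 0.

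**Figure D2:**
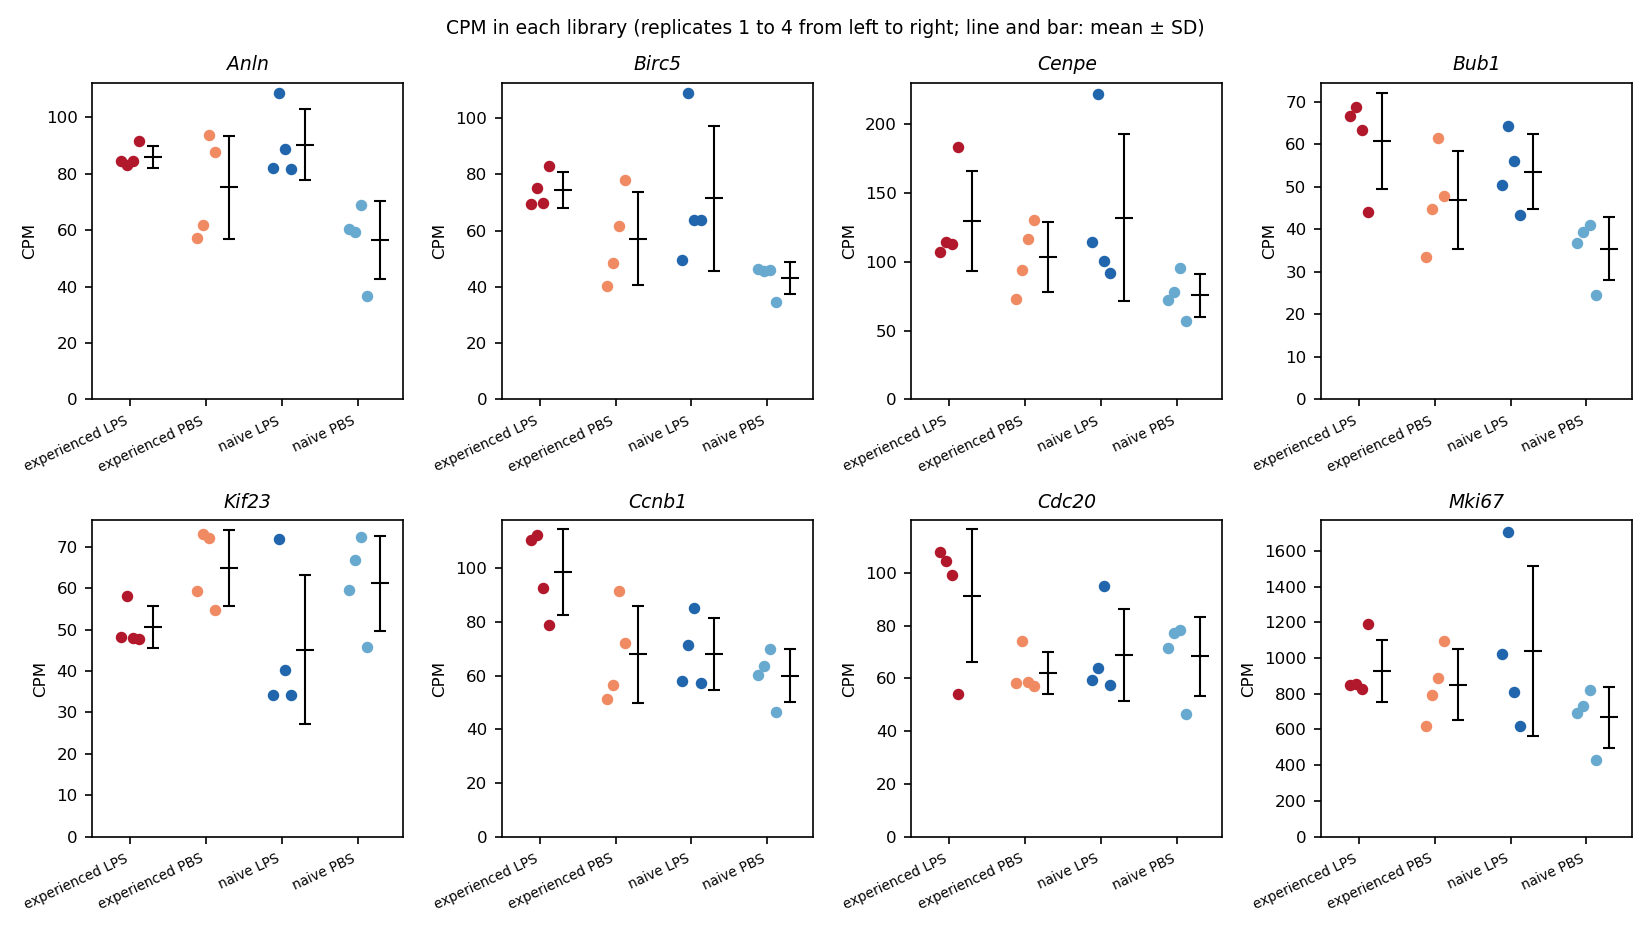
Library-scaled counts (CPM) of 8 members in each library, with the mean and SD of each group of 4 beside the points. Anln, Birc5 and Bub1 lie higher in all naive LPS than in all naive PBS libraries, Kif23 averages 50.6 CPM in experienced LPS and 64.9 in experienced PBS, and Cdc20 has 1 low experienced LPS library at 54.2 CPM.

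The second comparison was LPS against PBS in naive mice, which shares no library with the first. Anln, Birc5, Cenpe and Bub1 were called higher, and no member was called lower. The 4 called higher were 11.8% of the members, against 9.81% of all tested genes, and the 0 called lower compare with 11.9% of all genes, so the share called higher was near that of genes at large. The log2 changes of members had a median of 0.38, from -0.45 to 0.87, against 0.02 over all genes, and lay above 0 for 32 of 34 members (94.1%), against 51.4% of all genes. With upper-quartile scaling 27 members lay above 0 and on the TPM scale 28, and Cdc20, which was near 0, lay below it in both.

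Anln, anillin, the scaffold of the cleavage furrow (chr9:22332012-22389188, minus strand, GRCm38), changed with the lowest adjusted p. It had 81.9, 109, 88.8 and 81.8 CPM in naive LPS, against 60.4, 59.5, 69.0 and 36.7 CPM in naive PBS, a log2 change of 0.68 (SE 0.19, adjusted p = 0.019). All 4 LPS libraries lay above all 4 PBS libraries. Birc5, survivin, a chromosomal passenger protein (chr11:117849251-117855743, plus strand), had 49.7, 109, 63.6 and 63.7 CPM in naive LPS, against 46.3, 45.7, 46.0 and 34.5 CPM in naive PBS, a log2 change of 0.72 (SE 0.22, adjusted p = 0.030). The groups did not overlap, though naive LPS replicate 1 came close to the highest PBS library. Bub1 (chr2:127801122-127831865, minus strand) had 50.5, 64.3, 56.1 and 43.4 CPM in naive LPS, against 36.7, 39.3, 41.1 and 24.6 CPM in naive PBS, a log2 change of 0.59 (SE 0.20, adjusted p = 0.047). Its groups were apart as well. Cenpe, the kinetochore motor CENP-E (chr3:135212537-135273611, plus strand), had 114, 222, 101 and 91.9 CPM in naive LPS, against 72.3, 78.1, 95.2 and 56.8 CPM in naive PBS, a log2 change of 0.80 (SE 0.27, adjusted p = 0.044). Naive LPS replicate 4 lay under the highest PBS library.

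Ttk was the other member whose naive groups did not overlap, with 30.5, 45.2, 31.1 and 32.6 CPM in naive LPS, against 26.0, 26.2, 29.6 and 21.3 CPM in naive PBS, and an adjusted p of 0.15. With Anln, Birc5 and Bub1 it made 4 members above (11.8%), where 12.5% of all genes did so, and no member below, where 16.8% of all genes did. The largest naive change was that of Hmmr, a spindle pole protein that binds hyaluronan outside cells, at 0.87 (SE 0.31, adjusted p = 0.057). It had 76.7, 136, 65.5 and 42.8 CPM in naive LPS, against 43.5, 46.0, 49.5 and 35.8 CPM in naive PBS. Tpx2, which activates Aurka on the spindle, had 160.3, 274, 123 and 77.2 CPM in naive LPS, against 95.9, 91.5, 101 and 75.2 CPM in naive PBS (log2 change 0.80, SE 0.31, adjusted p = 0.074). In both, replicate 2 was far above and replicate 4 within the PBS range. Kif15 had 94.8, 193, 95.1 and 72.5 CPM in naive LPS, against 67.6, 79.2, 74.5 and 50.1 CPM in naive PBS (log2 change 0.74, SE 0.26, adjusted p = 0.055).

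Mki67 had 1025, 1707, 808 and 618 CPM in naive LPS, against 691, 729, 821 and 427 CPM in naive PBS (log2 change 0.64, SE 0.28, adjusted p = 0.11). Top2a had 498, 979, 560.4 and 370.4 CPM in naive LPS, against 519, 509, 539 and 380.3 CPM in naive PBS (log2 change 0.30, SE 0.22, adjusted p = 0.35). Replicate 2 was the highest LPS library in both and replicate 4 the lowest, and without replicate 2 the log2 change of Top2a was -0.01. Plk1 had 56.8, 59.9, 69.7 and 37.2 CPM in naive LPS, against 40.8, 39.7, 47.6 and 32.6 CPM in naive PBS (log2 change 0.48, SE 0.22, adjusted p = 0.13). Ccnb1 had 58.2, 71.5, 85.4 and 57.1 CPM in naive LPS, against 60.3, 63.7, 69.9 and 46.4 CPM in naive PBS (log2 change 0.18, SE 0.19, adjusted p = 0.55). Cdk1 (log2 change 0.05, SE 0.20, adjusted p = 0.88), Aurkb (0.06, SE 0.20, adjusted p = 0.87) and Cdc20 (0.01, SE 0.22, adjusted p = 0.97) lay near 0 in naive mice, with overlapping groups. Cdc20, for instance, had 59.4, 64.0, 94.9 and 57.5 CPM in naive LPS, against 71.7, 77.1, 78.2 and 46.4 CPM in naive PBS.

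Single libraries moved the naive count widely. Without naive LPS replicate 4, which was below its group's mean for 32 of the 34 members, 14 members were called higher (41.2%, against 11.4% of all genes in that fit). Without naive LPS replicate 2, which was above its group's mean for 31, Anln alone was called higher (2.94%, against 7.62% of all genes) and Kif23 was called lower (2.94%, against 9.80%). Naive LPS replicates 2 and 4 held 8538322 and 11530570 expected counts, with mitochondrial shares of 4.262% and 4.155%. Naive LPS replicates 1 and 3 held 19623586 and 21620698, with 3.079% and 2.122%. The part of depth and of the mitochondrial share in the naive calls was not tested. Anln alone was called without naive PBS replicate 2 or 4, where 4.99% and 5.80% of all genes were called higher. In 6 fits, without naive LPS replicate 1, naive PBS replicate 1 or 3, experienced LPS replicate 1 or 2, or experienced PBS replicate 2, 2 members were called (5.88%), against 6.10% to 9.10% of all genes. Without experienced LPS replicate 4, 7 members were called (20.6%), against 2184 of all 15558 genes tested. DESeq2 also called 7 higher, against 12.7% of all genes. On log2(TPM + 1) limma called 0, against 2.46% of all genes, and had 3 members at an unadjusted p under 0.05 (8.82%, against 26.7% of all genes). Anln was called in all 16 fits that left out 1 library, while the call of Birc5 was lost in 4 of them, that of Cenpe in 9 and that of Bub1 in 11.

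**Figure D3:**
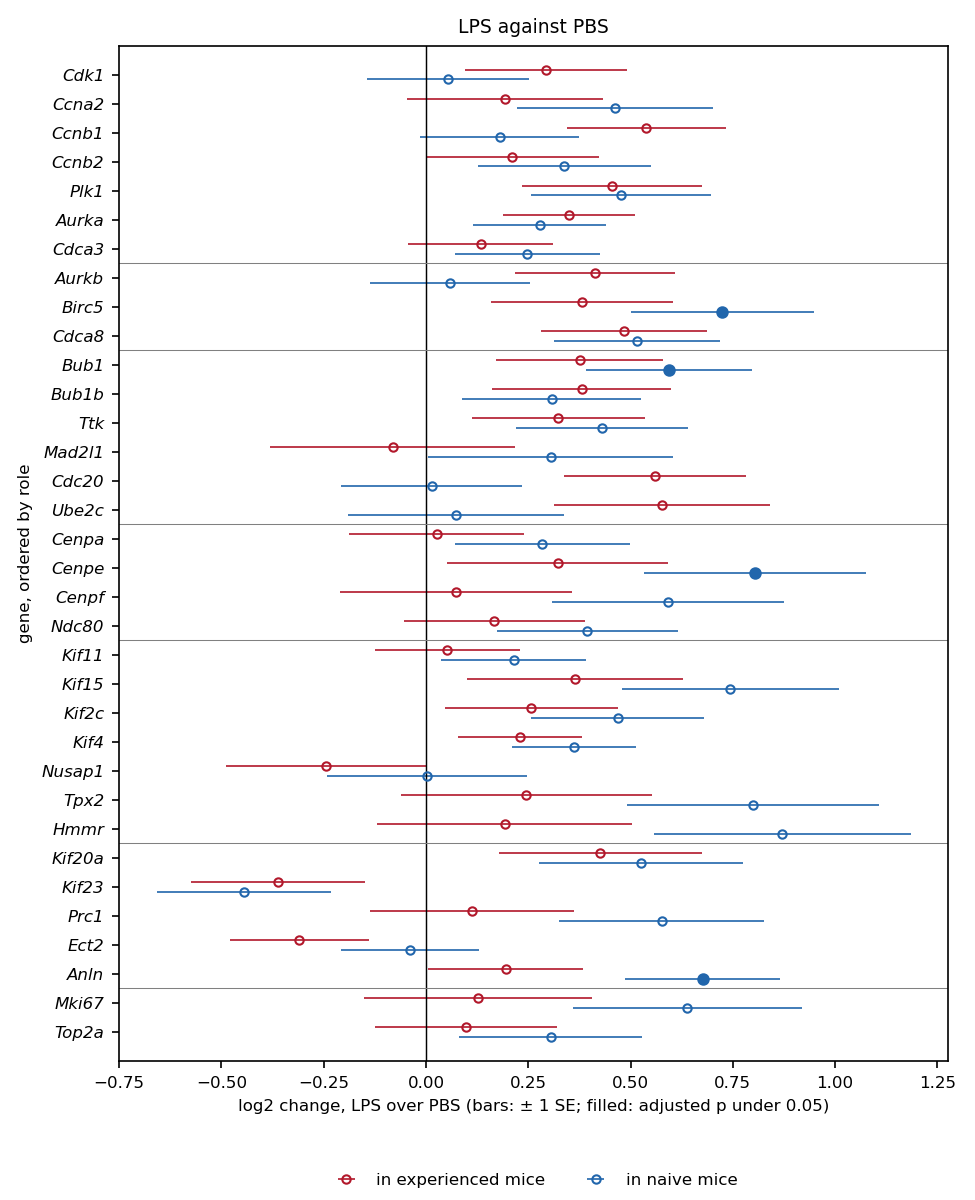
Log2 change of each member, LPS over PBS, in experienced mice and in naive mice, with bars of 1 SE; filled points passed an adjusted p of 0.05. The 4 filled points are all in naive mice, and Kif23 lies below 0 in both.

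Averaged over experienced and naive mice, which uses all 16 libraries, 10 members rose after LPS and 1 fell. The 10 called higher were 29.4% of members, against 15.2% of all genes, and the 1 called lower was 2.94%, against 18.3%. The median log2 change was 0.33, against 0.01 over all genes, and 31 of 34 members lay above 0 (91.2%, against 50.4% of all genes). By role, 2 of 7 cyclins and kinases rose (Plk1, Aurka), 2 of 3 chromosomal passenger genes (Birc5, Cdca8), 1 of 6 checkpoint and anaphase-promoting complex genes (Bub1), 1 of 4 kinetochore genes (Cenpe), 2 of 7 spindle motors and microtubule proteins (Kif15, Kif4), 2 of 5 central spindle and cytokinesis genes (Kif20a, Anln), and neither Mki67 nor Top2a.

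The 6 with the lowest adjusted p were Birc5, with a log2 change of 0.55 (SE 0.16, adjusted p = 0.013), Cdca8 with 0.50 (SE 0.14, adjusted p = 0.013), Bub1 with 0.48 (SE 0.14, adjusted p = 0.016), Anln with 0.44 (SE 0.13, adjusted p = 0.019), Plk1 with 0.47 (SE 0.16, adjusted p = 0.030) and Kif15 with 0.55 (SE 0.19, adjusted p = 0.031). These are changes of 1.35-fold to 1.47-fold. Cdca8 had 62.0, 119, 84.7 and 59.4 CPM in naive LPS, against 59.2, 61.7, 65.2 and 40.7 CPM in naive PBS, beside the experienced values above. Kif15 had 112, 119.6, 112 and 136 CPM in experienced LPS, against 65.8, 73.4, 126 and 108 CPM in experienced PBS. The other 4, Cenpe, Kif4, Aurka and Kif20a, a motor of the central spindle, had log2 changes of 0.56, 0.30, 0.31 and 0.48, with adjusted p of 0.032, 0.042, 0.044 and 0.047. Kif20a had 88.5, 83.3, 77.0 and 100.5 CPM in experienced LPS, against 45.7, 60.5, 65.4 and 88.4 CPM in experienced PBS. In naive mice Kif20a had 73.8, 119, 70.9 and 43.0 CPM after LPS, against 52.6, 54.1, 65.1 and 40.4 CPM after PBS. The groups overlapped in both kinds of mouse. Kif4 had 62.3, 66.6, 58.1 and 52.5 CPM in experienced LPS, against 46.3, 47.6, 52.3 and 58.2 CPM in experienced PBS. In naive mice Kif4 had 54.3, 76.2, 54.3 and 45.7 CPM after LPS, against 47.1, 45.0, 49.1 and 37.9 CPM after PBS. Its groups overlapped as well, through experienced PBS replicate 4 and naive LPS replicate 4.

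Leaving out 1 library at a time gave 4 to 18 members called higher in the average, while the share of all genes called higher ran over 11.6% to 17.7%. The fewest were without experienced PBS replicate 1 or 2 or naive PBS replicate 4 (11.8% of members, against 11.6%, 11.9% and 13.5% of all genes). The most were without experienced PBS replicate 4 (52.9%, against 17.5%). Birc5, Bub1, Cdca8 and Anln were called in all 16 of these fits, while the call of Kif15 was lost in 3, those of Plk1 and Cenpe in 5, those of Aurka and Kif4 in 8 and that of Kif20a in 12. On the TPM scale limma called 1 member higher, Birc5 (2.94%, against 5.49% of all genes).

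Kif23, the motor of the centralspindlin complex that starts cytokinesis, went the other way. It had 48.3, 58.2, 48.0 and 47.7 CPM in experienced LPS, against 59.4, 73.2, 72.2 and 54.9 CPM in experienced PBS. In naive mice it had 34.3, 71.8, 40.3 and 34.1 CPM after LPS, against 59.6, 66.9, 72.5 and 45.8 CPM after PBS. It fell by 0.40 on the log2 scale in the averaged comparison (SE 0.15, adjusted p = 0.049), while its changes within experienced (-0.36, SE 0.21, adjusted p = 0.29) and naive mice (-0.45, SE 0.21, adjusted p = 0.15) were not called. Naive LPS replicate 2 was the only naive LPS library above the PBS minimum. The averaged call was lost under the size factors of DESeq2 in edgeR (adjusted p = 0.056) and in 12 of 16 fits without 1 library, and it held on the TPM scale. Ect2, the exchange factor that acts with Kif23 at the cell equator, had 64.8, 64.9, 58.8 and 50.3 CPM in experienced LPS, against 55.8, 65.6, 97.5 and 77.5 CPM in experienced PBS (log2 change -0.31, SE 0.17, adjusted p = 0.25), and its naive change was -0.04 (SE 0.17, adjusted p = 0.90). Prc1, which bundles the microtubules of the same structure, had 116, 117, 114 and 163 CPM in experienced LPS, against 83.4, 113, 134 and 141 CPM in experienced PBS (log2 change 0.11, SE 0.25, adjusted p = 0.81). In naive mice Prc1 had 119, 224, 109.9 and 92.6 CPM after LPS, against 86.9, 99.5, 112 and 66.7 CPM after PBS (log2 change 0.58, SE 0.25, adjusted p = 0.11), and the groups overlapped in both kinds of mouse.

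The remaining members were not called in any comparison. Among cyclins and regulators, Ccna2 averaged 181 CPM in experienced LPS against 158 in experienced PBS and 157 in naive LPS against 114 in naive PBS. Ccnb2 averaged 75.5 CPM in experienced LPS against 65.3 in experienced PBS and 66.8 in naive LPS against 52.7 in naive PBS. Cdca3, which promotes the loss of the Cdk1 inhibitor Wee1, averaged 62.9 CPM in experienced LPS against 57.5 in experienced PBS and 54.2 in naive LPS against 45.7 in naive PBS. In each of these the LPS mean was the higher of the pair and the groups overlapped. Among checkpoint and kinetochore genes, Mad2l1, the checkpoint inhibitor of Cdc20, averaged 80.5 CPM in experienced LPS against 85.1 in experienced PBS and 79.9 in naive LPS against 64.5 in naive PBS. Cenpa averaged 119.7 CPM in experienced LPS against 118 in experienced PBS and 114 in naive LPS against 93.9 in naive PBS, and Cenpf 122 against 115 and 134 against 88.7 CPM in the same pairs. Ndc80 averaged 27.4 CPM in experienced LPS against 24.4 in experienced PBS and 25.6 in naive LPS against 19.4 in naive PBS. Among motors and spindle proteins, Kif11, the motor that separates spindle poles, averaged 176 CPM in experienced LPS against 169.6 in experienced PBS and 154 in naive LPS against 133 in naive PBS. Kif2c, which takes microtubules apart at centromeres, averaged 42.5 CPM in experienced LPS against 35.6 in experienced PBS and 41.4 in naive LPS against 29.8 in naive PBS. Nusap1, a spindle microtubule bundler, averaged 70.0 CPM in experienced LPS against 82.9 in experienced PBS and 63.8 in naive LPS against 63.6 in naive PBS.

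The third question was whether experienced and naive mice differed at the same treatment. No member was called in either direction, and of all genes 0% were called after LPS, 0% after PBS and 0% in the average. DESeq2 called 2 genes in each of these comparisons, none of them a member. After PBS, at the baseline of remission, 33 of 34 members (97.1%) lay higher in experienced than in naive mice, against 50.1% of all genes, with a median log2 change of 0.33 against 0.00 over all genes. With both libraries highest in mitochondrial counts left out, 32 of 34 lay higher, at a median of 0.22. Naive PBS replicate 4 was low for the members as a whole. Their mean log2 CPM, each gene centred on its average, was -0.61 there, against -0.25 to -0.08 in the rest of its group. Experienced PBS replicate 1, at -0.39, also lay below that rest. At an unadjusted p under 0.05 there were 3 members (Hmmr, Plk1 and Anln, 8.82%), against 2.97% of all genes, and the lowest adjusted p was 0.99. Plk1 had 34.9, 51.7, 59.2 and 81.3 CPM in experienced PBS, against 40.8, 39.7, 47.6 and 32.6 CPM in naive PBS, a log2 change of 0.50 (SE 0.22). Hmmr had 43.0, 51.2, 94.8 and 97.2 CPM in experienced PBS, against 43.5, 46.0, 49.5 and 35.8 CPM in naive PBS, a log2 change of 0.71 (SE 0.31). In both, experienced replicates 3 and 4 were high and replicate 1 lay among the naive libraries.

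After LPS, 28 of 34 members (82.4%) lay higher in experienced than in naive mice, against 46.2% of all genes, and the median log2 change was 0.11 against -0.02. The 4 members at an unadjusted p under 0.05 were Ccnb1, Plk1, Aurkb and Aurka (11.8%, against 3.23% of all genes), each with an adjusted p of 0.9999. Ccnb1 had 111, 112, 92.5 and 78.9 CPM in experienced LPS, against 58.2, 71.5, 85.4 and 57.1 CPM in naive LPS, a log2 change of 0.54 (SE 0.19). Experienced LPS replicate 4 lay within the naive range. The groups of Aurkb overlapped as well. Those of Plk1 (72.5 to 87.4 CPM in experienced LPS, against 37.2 to 69.7 in naive LPS) and Aurka (40.4 to 46.2 against 28.3 to 39.0) did not. The share of all genes with separate groups was not taken for this comparison. In the average over treatments all 34 members lay higher in experienced mice, against 49.2% of all genes, with a median of 0.21 and 5 members at an unadjusted p under 0.05 (Plk1, Aurka, Ccnb1, Kif11 and Cdca3, 14.7% against 1.94%). Of these Plk1 was first, at 0.48 (SE 0.16, adjusted p = 1). With both libraries highest in mitochondrial counts left out, 31 of 34 lay higher, at a median of 0.16.

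**Figure D4:**
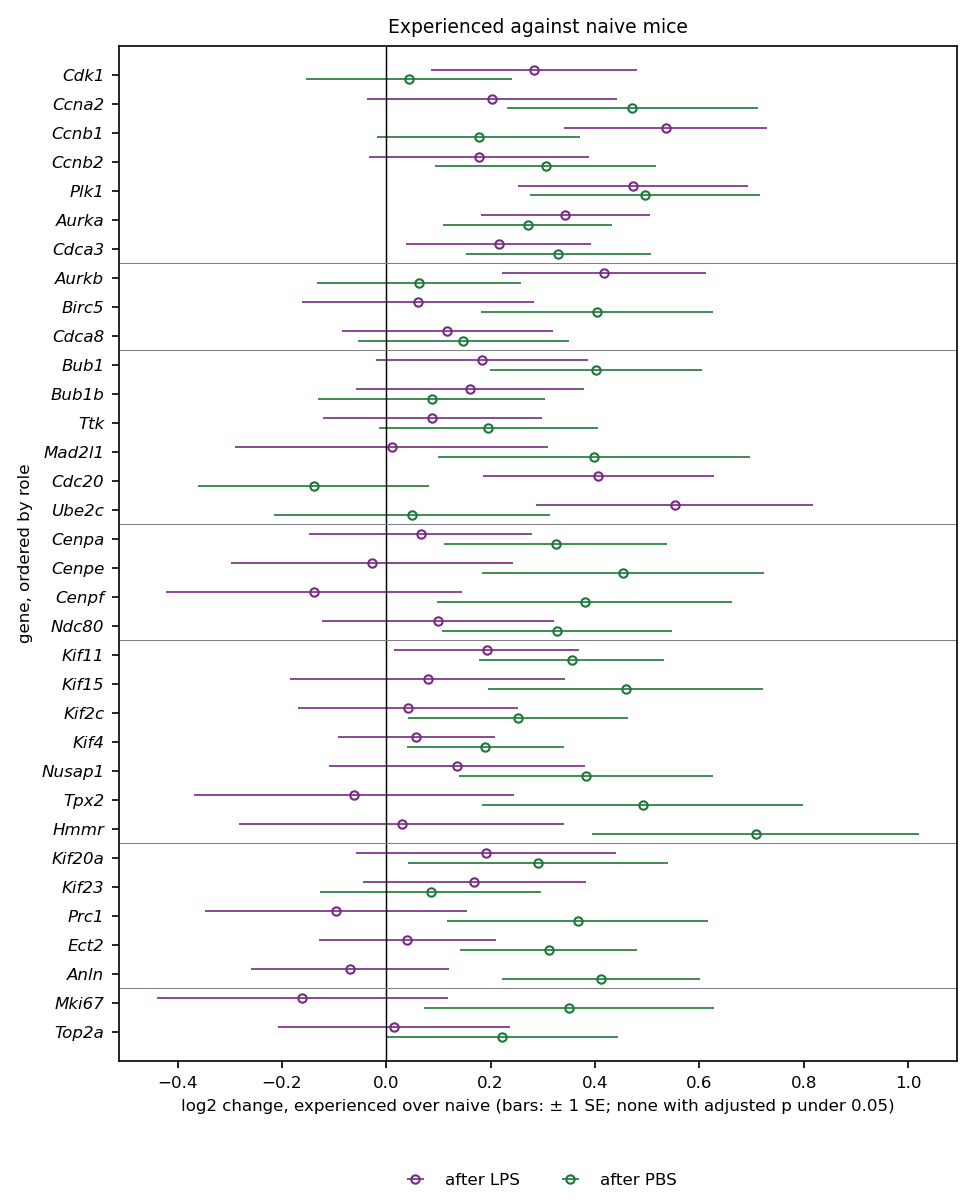
Log2 change of each member, experienced over naive mice, after LPS and after PBS, with bars of 1 SE; no point passed an adjusted p of 0.05. The values after PBS lie above 0 for all members but Cdc20, and those after LPS for 28 of 34.

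The interaction asked whether the LPS response differed between experienced and naive mice. No member was called, 0% of all genes were called, and no member reached an unadjusted p under 0.05, against 4.58% of all genes. DESeq2 called 1 gene, not a member. The log2 difference of responses, experienced minus naive, was above 0 for 8 of 34 members (23.5%), against 46.8% of all genes, with a median of -0.21, from -0.68 to 0.55. Cdc20 stood at one end, with 0.55 (SE 0.31, adjusted p = 0.88), beside Ube2c (0.50, SE 0.37), Ccnb1 (0.36, SE 0.27, adjusted p = 0.88), Aurkb (0.35, SE 0.28, adjusted p = 0.88) and Cdk1 (0.24, SE 0.28, adjusted p = 0.90). At the other stood Hmmr (-0.68, SE 0.44), Tpx2 (-0.55, SE 0.43), Cenpf (-0.52, SE 0.40), Mki67 (-0.51, SE 0.39, adjusted p = 0.88) and Anln (-0.48, SE 0.27, adjusted p = 0.88). Bub1 (-0.22, SE 0.29, adjusted p = 0.90), Top2a (-0.21, SE 0.32, adjusted p = 0.92) and Plk1 (-0.02, SE 0.31, adjusted p = 0.99) lay between, and the sign of Plk1 turned with the scaling. An effect called in naive mice and not in experienced mice was therefore not shown to differ between them. With both libraries highest in mitochondrial counts left out, 13 members lay above 0, at a median of -0.11. The libraries that stood apart bore on members at both ends. Deviations from the group mean in experienced LPS replicate 4 were -0.70 for Cdc20, -0.66 for Cdk1 and -0.60 for Aurkb on the log2 scale, against 0.62 for Mad2l1, 0.57 for Cenpf, 0.54 for Cenpe and 0.53 for Tpx2. In naive LPS replicate 2 they were -0.58 for Cenpa and -0.21 for Aurkb, against 1.01 for Cenpf, 0.94 for Tpx2 and 0.88 for Hmmr.

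Other genes of the pathway were taken from 5 lists of 128 genes in all. In experienced mice 2 were called higher after LPS (1.56%, against 4.52% of all genes) and 0 lower (against 8.26%). In naive mice 15 were called higher (11.7%, against 9.81%) and 1 lower (0.781%, against 11.9%). In the average 22 were called higher (17.2%, against 15.2%) and 2 lower (1.56%, against 18.3%). The shares called higher in naive mice and in the average were thus near those of all genes. Median log2 changes of the 128 were 0.14 in experienced mice, 0.23 in naive mice and 0.19 in the average. Genes of mitotic entry and its transcription held both of those called in experienced mice. Mybl2, which encodes B-Myb, the activator that joins the MuvB core at CHR elements, rose to 129 ± 16.01 CPM in experienced LPS, against 74.7 ± 16.5 in experienced PBS, and to 116 ± 17.3 CPM in naive LPS, against 67.7 ± 8.89 in naive PBS (SD, n = 4 each). Its log2 changes were 0.79 (SE 0.16, adjusted p = 0.0050) in experienced and 0.77 (SE 0.16, adjusted p = 0.0038) in naive mice. Bora, which lets Aurka activate Plk1, rose to 75.3 ± 13.7 CPM in experienced LPS, against 44.7 ± 9.79 in experienced PBS, and to 71.3 ± 7.80 CPM in naive LPS, against 40.4 ± 4.21 in naive PBS (SD, n = 4 each), with log2 changes of 0.75 (SE 0.16, adjusted p = 0.0068) and 0.82 (SE 0.16, adjusted p = 0.0025). Groups did not overlap for either gene in either kind of mouse. Wee1, the kinase that holds Cdk1 inactive, fell by 0.49 on the log2 scale in naive mice (SE 0.15, adjusted p = 0.028), to 47.4 ± 7.66 CPM in naive LPS, against 66.7 ± 7.69 in naive PBS (SD, n = 4 each).

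Of 35 other kinetochore and checkpoint genes, 0 were called in experienced mice, 5 rose in naive mice (14.3%, against 9.81% of all genes) and 8 in the average (22.9%, against 15.2%). Ska1, which holds kinetochores on moving microtubule ends, rose by 0.92 on the log2 scale in naive mice (SE 0.22, adjusted p = 0.0086), Zwilch, of the complex that brings dynein to kinetochores, by 0.76 (SE 0.20, adjusted p = 0.013), and Knl1, the kinetochore platform of Bub1, by 0.90 (SE 0.26, adjusted p = 0.020). Of 37 other spindle, centrosome and cytokinesis genes, 0 were called in experienced mice and 4 rose in naive mice (10.8%, near the 9.81% of all genes), led by Cep152 (0.63, SE 0.18, adjusted p = 0.020), Haus6 (0.62, SE 0.18, adjusted p = 0.024) and the motor Kif20b (1.02, SE 0.33, adjusted p = 0.035). In the average 7 of them rose (18.9%, against 15.2% of all genes), and Numa1, which anchors spindle poles, fell by 0.36 (SE 0.10, adjusted p = 0.014). Of 21 condensin, cohesin and separase genes, 2 rose in naive mice (Ncapg and Pds5a, 9.52%) and 0 were called in experienced mice. Of 16 anaphase-promoting complex genes, 1 rose in naive mice (Anapc10, 0.87, SE 0.27, adjusted p = 0.032) and 0 were called in experienced mice. That 1 gene was 6.25% of its list, and the shares of both lists in naive mice were under the 9.81% of all genes. No gene of these lists was called between experienced and naive mice or in the interaction.

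Genes of the G1/S step and DNA replication were set beside the mitotic members. Of 48, 1 rose in experienced mice (Gmnn, geminin, 0.51, SE 0.16, adjusted p = 0.041), 8 rose and 1 fell in naive mice, and 13 rose and 1 fell in the average. Those that rose were 2.08% of the list in experienced mice (4.52% of all genes), 16.7% in naive mice (9.81% of all genes) and 27.1% in the average (15.2% of all genes). In naive mice the first 3 were E2f8, an E2F repressor (1.20, SE 0.24, adjusted p = 0.0026), Orc1, of the origin recognition complex (0.76, SE 0.17, adjusted p = 0.0050), and Ccne1, cyclin E1 (1.41, SE 0.41, adjusted p = 0.023). Of 14 genes linked to quiescence, 6 fell and 1 (Cdkn1a) rose in experienced mice, 8 fell in naive mice, and 10 fell and 1 rose in the average. Those that fell were 42.9% of the list in experienced mice (8.26% of all genes), 57.1% in naive mice (11.9% of all genes) and 71.4% in the average (18.3% of all genes). Txnip, a brake on glucose uptake, fell by 1.31 in experienced mice (SE 0.22, adjusted p = 0.0012), Mxd4, a Myc antagonist, fell by 1.0003 (SE 0.20, adjusted p = 0.0039), and Foxo3, a factor that keeps stem cells at rest, fell by 0.68 (SE 0.15, adjusted p = 0.0072), all on the log2 scale. In naive mice Mxd4 fell by 0.99 (SE 0.20, adjusted p = 0.0028), Tob1, an antiproliferative factor, fell by 0.76 (SE 0.17, adjusted p = 0.0049), and Ccng2, cyclin G2, fell by 0.86 (SE 0.19, adjusted p = 0.0052). The median log2 change of the quiescence list was -0.58 in experienced and -0.69 in naive mice. This list was chosen with earlier results of these data known, so its shares are not a separate test.

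The lists also differed in how cleanly they parted the libraries. They were chosen with earlier results of these data known, so this is given as a description. The members' mean level, taken as log2 CPM minus the gene's own average in all 16 libraries, was 0.16 to 0.28 in experienced LPS, against -0.39 to 0.23 in experienced PBS, and -0.33 to 0.52 in naive LPS, against -0.61 to -0.08 in naive PBS. The groups overlapped in both kinds of mouse. For the quiescence list it was -0.41 to -0.25 in experienced LPS, against 0.16 to 0.55 in experienced PBS, and -0.59 to 0.04 in naive LPS, against 0.27 to 0.40 in naive PBS, with no overlap in either. Naive LPS replicate 4, the lowest of its group for the members (-0.33), was at -0.48 for the quiescence list.

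**Figure D5:**
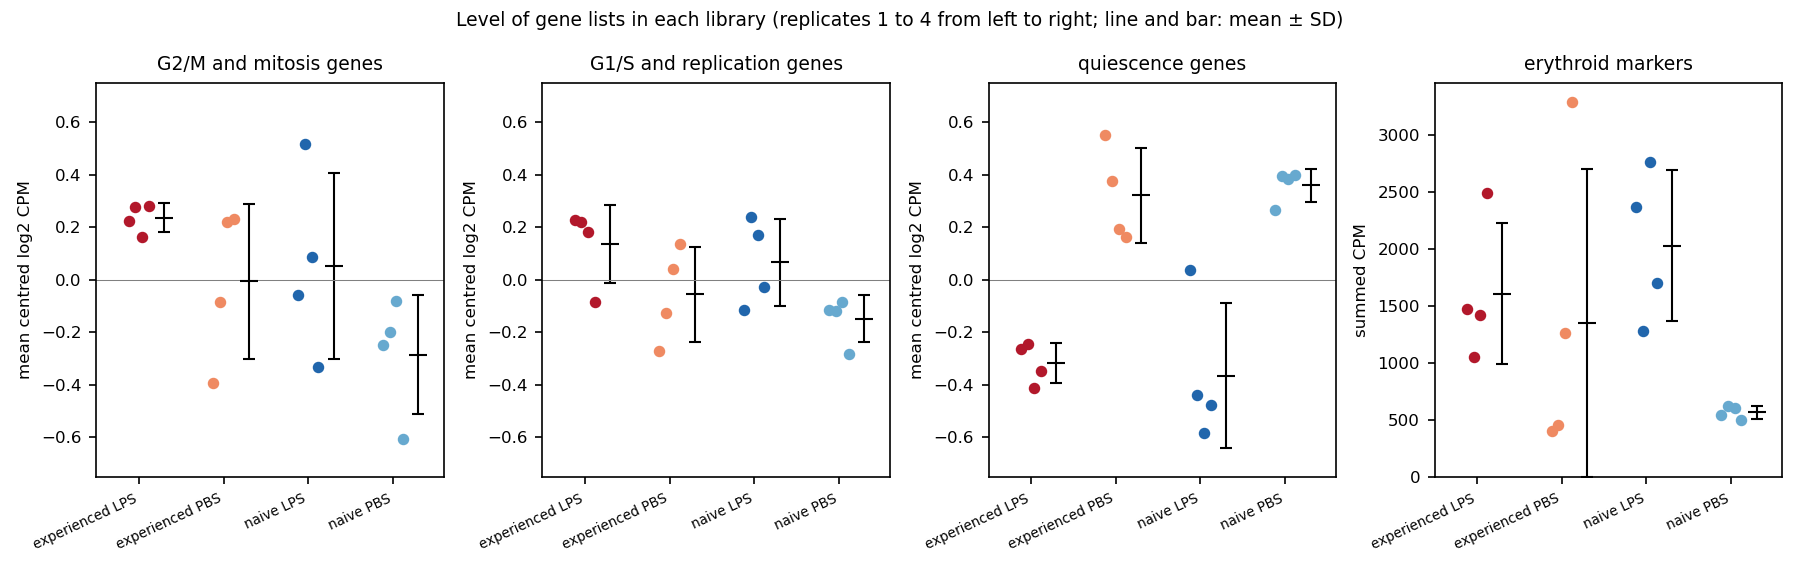
Mean level of the members, of G1/S and replication genes and of quiescence genes (log2 CPM, each gene centred on its mean), and the summed CPM of erythroid markers, in each library, with the mean and SD of each group of 4. The quiescence list, chosen with earlier results of these data known, parts LPS from PBS libraries in both kinds of mouse, and the members do not.

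Markers of other cells moved with LPS as well, and their shares called are to be read against those of all genes. Of all genes, 4.52% were called higher and 8.26% lower in experienced mice, and 9.81% higher and 11.9% lower in naive mice. Erythroid markers (15 of 16 tested) summed to 1278 to 2760 CPM in naive LPS, against 499.7 to 623 CPM in naive PBS. There 9 of 15 rose (60%). In experienced mice these markers summed to 1049 to 2491 CPM after LPS, against 400.4 to 3292 CPM after PBS, and 1 rose (6.67%). The markers of haemoglobin synthesis were near 0 in every group, with Hba-a1 at 0 in 11 of 16 libraries and Alas2 at a mean of 0.32 TPM in naive LPS, against 0.48 TPM in naive PBS, while Car1 averaged 549 TPM in naive LPS, against 63.8 TPM in naive PBS. Basophil and mast cell markers (10 of 11 tested) summed to 626 to 976 CPM in experienced LPS, against 258 to 495 CPM in experienced PBS. Of these, 7 of 10 were called higher (70%). In naive mice they summed to 821 to 1395 CPM after LPS, against 289 to 330.0 CPM after PBS, with all 10 called higher. Gata2, among those called in both kinds of mouse, is also on the stem and progenitor list. Stem and progenitor markers (14 of 14 tested) summed to 2153 to 2367 CPM in experienced LPS, against 2765 to 3418 CPM in experienced PBS. Their sums were 2029 to 2664 CPM in naive LPS, against 3245 to 3934 CPM in naive PBS. In experienced mice 2 were called higher (Ly6a and Gata2, 14.3%) and 6 lower (42.9%), at a median log2 change of -0.48. In naive mice the same 2 were called higher (14.3%) and 8 lower (57.1%), at a median of -0.66. Hlf, Flt3, Mecom and Procr were among those called lower in both. Their log2 changes ran from -2.1047 to -1.8355 in experienced and from -2.7713 to -2.0315 in naive mice. B cell markers (8 of 10 tested) summed to 35.8 to 83.5 CPM in experienced LPS, against 169.4 to 1052 CPM in experienced PBS, with 2 called lower (25%). In naive mice they summed to 34.3 to 81.9 CPM after LPS, against 257 to 534 CPM after PBS, with 4 called lower (50%). In each kind of mouse, megakaryocyte markers (8 of 8 tested) had 2 called higher (25%). T and NK cell markers (4 of 10 tested) had 2 called lower in each (50%), and endothelial and stromal markers (6 of 10 tested) 2 called lower in each (33.3%). Neutrophil and monocyte markers (14 of 15 tested) had 1 higher and 1 lower in experienced mice (7.14% each). In naive mice 2 were lower (14.3%), and these shares were near those of all genes. The part of these markers in the members' changes was not tested. Within the PBS groups, experienced PBS replicates 3 and 4 had both the highest erythroid sums, at 1263 and 3292 CPM, and the highest mean member levels, at 0.22 and 0.23. Within naive LPS, replicate 2 had the lowest erythroid sum, 1278 CPM, with the highest member level, 0.52. Replicates 4, 1 and 3 had sums of 1701, 2370 and 2760 CPM, with levels of -0.33, -0.058 and 0.087. In experienced LPS, replicates 2 and 4 had the lowest and highest sums, 1049 and 2491 CPM, with levels of 0.277 and 0.283. In naive PBS, replicate 2 had the highest sum, 623 CPM, and replicate 3 the highest level, -0.082. Naive PBS replicate 4 was lowest in both, at 499.7 CPM and -0.61. How the sum and the level relate was not tested.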

How the data were processed

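RNA was measured in 16 libraries, 1 per biological replicate, 4 per group. The labels list 2 technical replicates for each, without saying how they were joined. Per the labels, RNA was purified on columns, yet the chemistry named for the libraries is one made for single cells. With 1 value per gene and library, the data were treated as bulk. The submitters' processing notes name Trim Galore 0.6.7, STAR 2.7.10a, RSEM 1.3.1 and the build GRCm38. The strand setting was not stated there. The deposited tables give expected counts, which RSEM divides among genes that share reads, and TPM, per the file headers. GENCODE M21 (GRCm38) matched 45143 of 45706 identifiers.

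Expected counts were rounded, filtered by group (15186 genes, 99.928% of counts), scaled by TMM and fitted with edgeR 4.0.16 in R 4.3.3 by quasi-likelihood, with 1 mean per group over all 16 libraries (12 residual degrees of freedom, common biological coefficient of variation 0.306). The SE was the log2 change over the root of F. A gene was called where its p, adjusted by Benjamini-Hochberg over all genes tested, was under 0.05. CPM used TMM-scaled sizes. Alternatives were other scalings, DESeq2 1.42.0, no filter, limma 3.58.1 on log2(TPM + 1), fits of 2 groups, a replicate block and leaving out libraries. Counts were also simulated, with 50 genes changed by a known fold each time. A 1.5-fold change was called in 8% of these genes for LPS in experienced mice, 4% in naive mice and 32% in the average. Between experienced and naive mice the shares were 12% after PBS, 8% after LPS and 38% in the average, and 2% for the interaction. At 2-fold they ran from 20% for the interaction to 72% for LPS in the average. Most 1.5-fold changes thus went uncalled there. Far fewer genes changed in the simulation than were called after LPS, 1940 in experienced mice, 3293 in naive mice and 5084 in the average. That makes its adjusted threshold stricter, so its shares are not those of the members after LPS. Members not called are still not shown to be unchanged. Named members were those with the lowest adjusted p, up to 6 per contrast, and 8 fixed by name, and every member was given a level. The members and lists were chosen with earlier results of these data known. As no label calls the replicates separate mice, the p-values reflect only how far these samples spread, which may be technical.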

Additional observations from a re-analysis of the deposited data

Results flagged for a closer look

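In groups of 4 libraries, a member was picked out where 1 library's gap to its nearest neighbour, as a share of the group's range, was above Dixon's critical value. Of 136 groups 18 were. Chance gives about 1 in 20 for separate groups, but these hold the same libraries and members that vary together (mean correlation 0.55). The 18 are therefore not shown to exceed chance, and the rate over all genes was not taken. Experienced LPS replicate 4 held 8 of them. It was low for Cdk1, at 52.1 CPM against 93.9 to 98.4 in the other libraries of its group, and for Cdc20, at 54.2 CPM against 99.0 to 108. It was high for Mad2l1 (119.9 CPM against 64.3 to 71.9), Cenpe (184 against 107 to 115), Tpx2 (214 against 127 to 135), Prc1 (163 against 114 to 117), Anln (91.6 against 83.2 to 84.6) and Mki67 (1189.8 against 827 to 852).

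Naive PBS replicate 4 held 5. It was low for Aurkb (46.7 CPM against 67.9 to 70.5), Birc5 (34.5 against 45.7 to 46.3), Ube2c (35.0 against 52.6 to 54.6) and Kif11 (97.8 against 139.6 to 147), and high for Mad2l1 (93.1 against 52.4 to 57.5). Naive LPS replicate 2 held 3, high for Ttk (45.2 CPM against 30.5 to 32.6), Cenpf (246 against 88.0 to 109) and Kif23 (71.8 against 34.1 to 40.3). Kif23 was also high in experienced LPS replicate 2, at 58.2 CPM against 47.7 to 48.3, and Cdc20 in experienced PBS replicate 2, at 74.2 CPM against 57.2 to 58.6.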

How the results depend on the processing

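With 1 library left out at a time, members called higher ranged from 0 to 5 in experienced mice, from 1 to 14 in naive mice and from 4 to 18 in the average, and members called lower from 0 to 1 in naive mice and from 0 to 1 in the average. All genes called ranged from 302 to 1456 higher and 712 to 1701 lower in experienced mice. In naive mice they ranged from 768 to 2184 higher and 1233 to 2214 lower. In the average they ranged from 1800 to 2750 higher and 2368 to 2983 lower. Over the same fits log2 changes after LPS in naive mice ranged from -0.18 to 0.10 for Cdc20, -0.0455 to 0.17 for Cdk1, -0.11 to 0.15 for Aurkb and -0.0090 to 0.48 for Top2a, and the interaction from -0.36 to 0.14 for Top2a and -0.20 to 0.21 for Plk1.

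With the size factors of DESeq2 in edgeR, 0 members were called lower in the average (against 18.1% of all genes). The interaction of Plk1 was then 0.0021. With upper-quartile factors 2 members were called higher in naive mice (5.88%, against 7.26% of all genes). The naive changes of Cdc20, Cdk1 and Aurkb were then -0.066, -0.025 and -0.018, and the interaction of Plk1 was 0.027. DESeq2 itself called 1 member higher in experienced mice (2.94%, against 7.76%, 1178 of all genes) and 7 in naive mice (20.6%, against 12.7% of all genes). Between experienced and naive mice it called 2 genes higher after PBS, 2 higher after LPS, and 1 higher and 1 lower in the average, and it called 1 higher in the interaction, where Plk1 was 0.0020. Without the filter 0 members were called lower in the average (against 10.6% of all genes) and the interaction of Plk1 was 0.011.

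On log2(TPM + 1), limma called 0 members higher in naive mice and 1 (2.94%) in the average. Of all genes it called 178 (1.17%), 374 (2.46%) and 834 (5.49%) higher in experienced mice, naive mice and the average. It called 1 gene lower in experienced than in naive mice after PBS. There the experienced changes of Cdk1 and Top2a were -0.015 and -0.071, the naive changes of Cdc20 and Top2a -0.096 and -0.011, and the interactions of Cdk1 and Plk1 -0.15 and 0.050. The median of all genes was -0.13 in experienced and -0.09 in naive mice on this scale, and the members' median lay 0.22 and 0.34 above it, against 0.26 and 0.36 in the reported fit. With only the 2 groups compared in the fit, 700 genes were called lower in experienced mice.

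Both libraries highest in mitochondrial counts were also left out, a choice made after the data were seen. This gave 5 members higher in experienced mice (14.7%, against 10.1%, 1559 of all genes) and 7 in naive mice (20.6%, against 15.7%, 2426 of all genes). In the average it gave 17 higher (50%, against 19.8% of all genes) and 0 lower (against 20.6%). It also gave 1 gene lower in experienced than in naive mice after LPS, and an interaction of 0.14 for Plk1. The cause of these shifts was not tested. With a replicate block, 3 members were called higher in naive mice (8.82%, against 8.14% of all genes). In the average 9 were called higher (26.5%, against 13.7%) and 1 lower (2.94%, against 17.6%). Correlations of same-numbered libraries lay between -0.22 and 0.32, so the numbers were not taken to pair the samples. No member had under 206 estimated counts in any library.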
